A study of Homo sapiens with 2 samples.

Results

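The receptors that SB-431542 acts on, their partner receptors and the SMAD proteins they activate were read at the RNA level in 2 cultures, 1 grown without and 1 with the inhibitor. The 10 genes were chosen by name as TGFBR1, ACVR1B, ACVR1C, ACVR1, TGFBR2, BMPR2, TGFBR3, SMAD2, SMAD3 and SMAD4, out of 19775 genes that have a probe set of their own on the array. They are covered by 37 probe sets that the platform annotation assigns to a single gene, out of 41091 such probe sets. A probe set is a group of short DNA probes that together read the transcripts of a gene.

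Cells came from HUES9, an established human embryonic stem cell line, at passage 32. The stem cells were grown for 10 days as embryoid bodies, floating aggregates in which differentiation begins, and moved to fibronectin in a chemically defined medium, where a monolayer grew out and was passaged. Control-OG received the solvent DMSO at 0.01% throughout. SB-OG received SB-431542 at 10 µM in the embryoid bodies and at 1 µM in the outgrowth. At outgrowth passage 5, 3 samples per condition were taken and mixed, and total RNA of each mixture was labelled with biotin and read on 1 Affymetrix array, so n = 1 per condition. Both conditions come from a single cell line, and mixing removed the spread between the samples. No value below therefore has a replicate error, and no test was made.

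TGF-β, activin and nodal signal through pairs of receptor kinases on the cell surface. A type II receptor binds the ligand and phosphorylates a type I receptor, which phosphorylates SMAD2 and SMAD3, and these enter the nucleus with SMAD4 to regulate genes. SB-431542 blocks the kinase of the type I receptors ALK5, ALK4 and ALK7, the products of TGFBR1, ACVR1B and ACVR1C. The BMP branch of the family uses other type I receptors, such as ALK2 from ACVR1, and the transducers SMAD1, SMAD5 and SMAD9, and is spared by the inhibitor. The inhibitor acts on the kinase and not on the transcript, so the arrays read how much receptor and SMAD RNA each culture held, not pathway activity.

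The transcripts of the receptors and SMADs mostly differed little between the cultures. TGFBR2 and TGFBR3 were lower in SB-OG by every probe set above background on both arrays, whereas the 4 probe sets of SMAD3 ran from 3.25-fold lower to 1.60-fold higher. Values are intensities on a linear scale, as deposited, and a gene is given by its brightest probe set. A probe set counted as above background where it exceeded the 95th percentile of gene families assumed silent in these cells, 32.6 on control-OG and 27.6 on SB-OG. By that measure 9 of the 10 genes were above background on both arrays, and ACVR1C was above it on neither. No gene was at least 2-fold higher in SB-OG, beside 12.4% of the 12499 genes above background on at least 1 array. A single gene, TGFBR3, was at least 2-fold lower, beside 13.0% of those genes. The median log2 difference of the 9 genes, SB-OG minus control-OG, was -0.27, beside -0.02 over all genes above background.

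The range over the 9 genes ran from -1.00 for TGFBR3 to 0.30 for SMAD4 on the log2 scale. Of the 9, 7 were less than 1.5-fold apart, beside 56.0% of all genes above background on both arrays; the limit of 1.5-fold was chosen with the values known. The median size of the difference, without its sign, was 0.30 for these genes and 0.501 for all genes above background on both arrays. As a technical spread, the differences given by probe sets of the same gene had a pooled SD of 0.46 in log2 units over 4930 genes. Differences smaller than that cannot be separated from disagreement between probe sets. This spread comes from a single pair of arrays, so it holds no error between arrays or cultures. A difference beyond it is therefore not shown to be reproducible.

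Signs of the small differences depend on how the arrays are scaled. As deposited, 8 of the 9 genes had a negative difference, beside 50.6% of all genes above background on both arrays, but this was 3 of 9 when SB-OG was scaled on the hybridisation controls, spiked-in bacterial and phage transcripts. That scaling raised SB-OG by 0.48 on the log2 scale for every probe set, and the median of all genes became 0.46. Under it 24.4% of all genes were at least 2-fold higher and 7.25% at least 2-fold lower. The 3 genes still lower under it were TGFBR2, TGFBR3 and SMAD3, the last at only -0.04. By the brightest probe sets, the gap between TGFBR3 and SMAD4, the lowest and highest of the 9, was 1.30 on the log2 scale or 2.47-fold. It is the same under any scaling by a common factor, but not for other probe sets. TGFBR3 was at -0.51 by 226625_at and SMAD4 at 0.04 by 235725_at. With the mean of all probe sets the range over the 9 genes was 0.90.

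**Figure D1:**
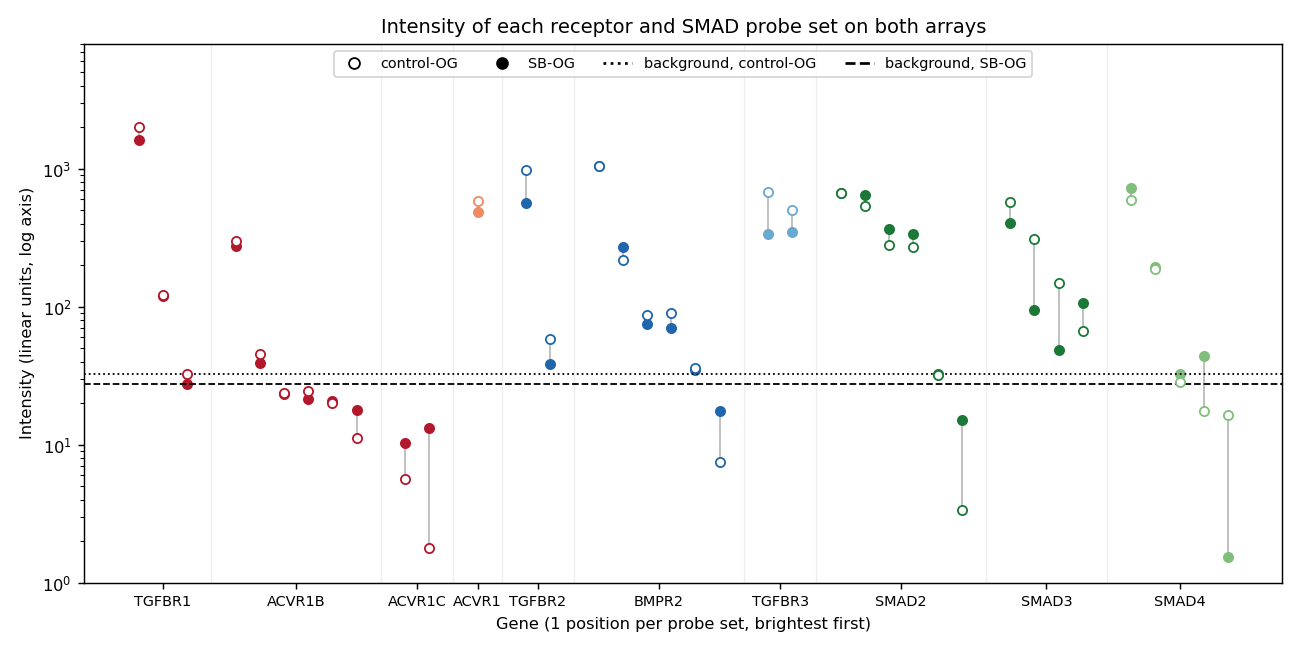
Intensity of the 37 probe sets of the 10 genes on a log axis, with open circles for control-OG and filled circles for SB-OG, joined by a line; colours follow the role of the gene, and the horizontal lines are the background levels of 32.6 and 27.6. Circles nearly coincide for the brightest probe sets of SMAD2 and BMPR2, lie apart for TGFBR2, TGFBR3 and 2 probe sets of SMAD3, and lie under both lines for ACVR1C.

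Of the type I receptors that SB-431542 inhibits, TGFBR1 and ACVR1B were present on both arrays at similar levels. TGFBR1 encodes ALK5, the main type I receptor for TGF-β. Its brightest probe set, 224793_s_at, read 1995 on control-OG and 1602 on SB-OG, 1.25-fold lower with the inhibitor. A dimmer probe set, 206943_at, read 121 and 120.3, and the third, 236561_at, stayed at the edge of background, 32.3 and 27.7. The levels are thus closely alike by the second probe set and slightly lower by the first, and the sign turned to 0.16 on the log2 scale when SB-OG was scaled on the hybridisation controls. In a mixed culture, fewer cells of a type that uses a gene and less RNA of it per cell cannot be told apart, here and for every gene below.

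ACVR1B encodes ALK4, a type I receptor for activin and nodal. Probe set 213198_at read 297 on control-OG and 277 on SB-OG, and 205209_at read 45.2 and 39.3, differences of -0.10 and -0.20 on the log2 scale. The other 4 of its 6 probe sets were under background on both arrays, between 11.2 and 24.6 on control-OG and between 17.9 and 23.2 on SB-OG. The first difference became 0.37 with scaling on the hybridisation controls, so ACVR1B had no direction that held across scalings. ACVR1C encodes ALK7, a type I receptor for nodal and some activins. Its probe set 1552519_at read 5.69 on control-OG and 10.4 on SB-OG, and 1563182_at read 1.80 and 13.2. All these values lie under background, so no fold is given and ACVR1C was not detectable on either array.

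ACVR1, the ALK2 receptor of the BMP branch, is not a target of SB-431542. It is read by a single probe set, 203935_at, with 581 on control-OG and 482 on SB-OG, 1.20-fold lower. Its difference of -0.27 on the log2 scale is of the same size as the -0.32 of TGFBR1, and it turned to 0.21 with scaling on the hybridisation controls. By its difference ACVR1 lay between TGFBR1 and ACVR1B, the 2 measured targets of the inhibitor.

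The type II receptors TGFBR2 and BMPR2 differed from each other. TGFBR2, which binds TGF-β and recruits ALK5, read 978 on control-OG and 559.7 on SB-OG by probe set 208944_at, 1.75-fold lower with the inhibitor. Its second probe set, 207334_s_at, read 58.4 and 38.5, 1.52-fold lower. As deposited, both probe sets of TGFBR2 were lower in SB-OG, by 0.81 and 0.60 on the log2 scale, each beyond the technical spread but short of 2-fold. Under the alternatives the difference of the gene stayed negative, between -0.81 and -0.33. The latter, with scaling on the hybridisation controls, is inside the technical spread.

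BMPR2, the type II receptor for BMP ligands, read 1045 on control-OG and 1038 on SB-OG by 225144_at, a ratio of 0.993. Its other probe sets above background read 217 and 273 (231873_at), 87.0 and 74.5 (210214_s_at), 90.4 and 70.6 (209920_at), and 36.1 and 34.7 (238516_at). These 5 probe sets gave log2 differences from -0.36 to 0.33 with signs of both kinds, all inside the technical spread, and the sixth, 1556075_at, was under background at 7.48 and 17.5. By the brightest probe sets, the gap between TGFBR2 and BMPR2 was 0.80 on the log2 scale, or 1.74-fold. It does not change with a common scaling factor.

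TGFBR3 had the lowest difference of the 10 genes by its brightest probe set. It encodes betaglycan, a co-receptor without kinase activity that presents TGF-β to TGFBR2 and binds inhibin. Probe set 204731_at read 673 on control-OG and 335 on SB-OG, 2.01-fold lower, and 226625_at read 498 and 350.1, 1.42-fold lower. Both probe sets were thus lower in SB-OG, the first just past 2-fold and the second short of it. The 2-fold mark was missed when the 2 probe sets were averaged, when the arrays were centred, with a pseudocount and with scaling on the hybridisation controls, where the difference was -0.53. By the brightest probe sets, TGFBR3 differed from TGFBR1 by a gap of 0.69 on the log2 scale, or 1.61-fold.

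SMAD2 and SMAD3, the transducers that the inhibited receptors phosphorylate, differed in how closely their own probe sets agreed. SMAD2 was nearly the same in both cultures by its brightest probe set, 203076_s_at, with 663 on control-OG and 662 on SB-OG. Probe set 203075_at read 538 and 644, 226563_at read 282 and 363, and 203077_s_at read 269 and 334. These 3 probe sets were slightly higher in SB-OG, by 0.26 to 0.37 on the log2 scale, within the technical spread. Of the remaining 2, 235598_at lay at the edge of background at 32.0 and 32.6, and 239271_at was under it on both arrays.

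The 4 probe sets of SMAD3 did not tell the same story. The brightest, 218284_at, read 577 on control-OG and 404 on SB-OG, 1.43-fold lower. Probe set 205398_s_at read 307 and 94.7, 3.25-fold lower, and 205397_x_at read 147 and 48.3, 3.05-fold lower. Against these, 205396_at read 66.5 and 106, 1.60-fold higher in SB-OG. In the array maker's naming, an s marks a probe set shared by several transcripts and an x a probe set with probes that can also bind other sequences, while the other 2 carry no such mark. The probe sets past 2-fold are therefore those with a mark, and the 2 unmarked ones went opposite ways.

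The log2 differences of the 4 SMAD3 probe sets had an SD of 1.11 and a span of 2.38, whereas the 4 probe sets of SMAD2 above background spanned 0.37. Among 749 genes with at least 4 probe sets measured on both arrays, 98.1% had a smaller SD than SMAD3. Whether the probe sets read different SMAD3 transcripts was not tested. By the brightest probe sets, the gap between SMAD3 and SMAD2 was 0.51 on the log2 scale, or 1.43-fold. Under the alternatives the difference of SMAD3 lay between -0.79 and -0.04, the latter with scaling on the hybridisation controls.

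SMAD4, the partner that SMAD2, SMAD3 and the BMP transducers all share, was the only one of the 9 measured genes with a positive difference by its brightest probe set. Probe set 202527_s_at read 591 on control-OG and 728 on SB-OG, 1.23-fold higher, and 235725_at read 187 and 192. Probe set 202526_at read 17.5 and 44.2 and exceeded background on SB-OG alone, at least 1.36-fold higher, and without a background floor it was the 1 probe set past 2-fold upward among the 28 of these genes above background on at least 1 array. The remaining probe sets were 1565703_at, at 28.5 and 32.4, and 1565702_at, under background at 16.4 and 1.54. The 2 probe sets of SMAD4 above background on both arrays differed by 0.30 and 0.04 on the log2 scale, inside the technical spread.

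Over all 37 probe sets, 24 were above background on both arrays, 4 on SB-OG only and 9 on neither. None was at least 2-fold higher in SB-OG, beside 12.7% of the 23385 probe sets of single genes above background, and 3 were at least 2-fold lower, beside 12.0%. Those 3 were 204731_at of TGFBR3 and 205398_s_at and 205397_x_at of SMAD3. Of the 24 above background on both arrays, 18 were less than 1.5-fold apart, beside 55.8% of all such probe sets. The 10 genes share no probe set, but probe sets of the same gene are not independent measurements.

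**Figure D2:**
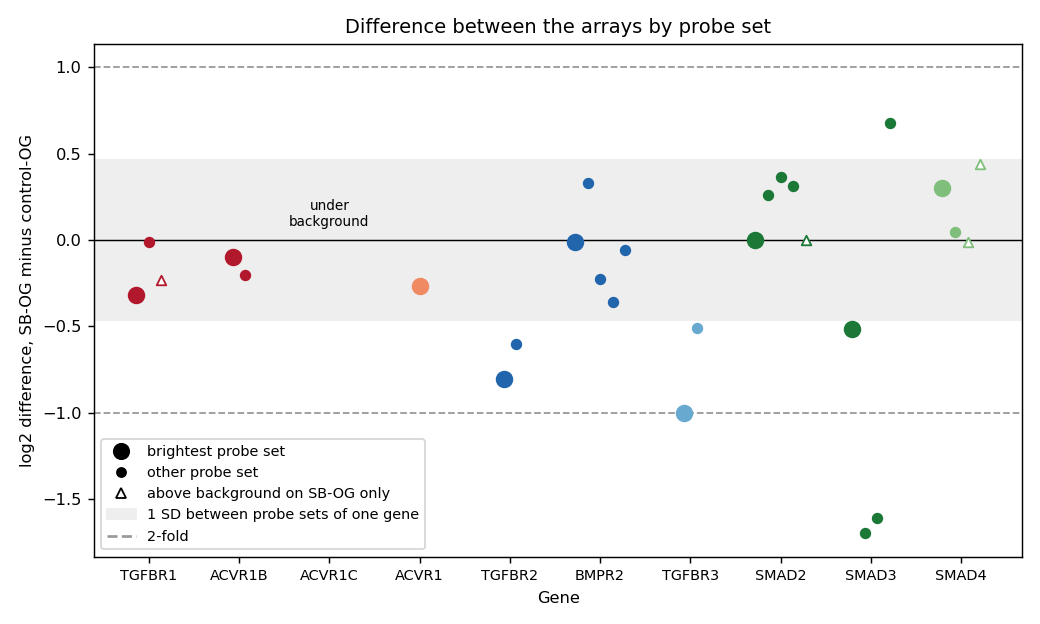
Log2 difference, SB-OG minus control-OG, for each probe set above background, with large points for the brightest probe set of a gene and triangles for probe sets above background on SB-OG only; colours follow the role of the gene, the grey band is 0.46 to either side of 0, the SD between probe sets of a gene, and dashed lines mark 2-fold. Both probe sets of TGFBR2 and of TGFBR3 lie below the band, and the 4 of SMAD3 range from -1.70 to 0.68; with scaling on the hybridisation controls all points move up by 0.48.

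**Figure D3:**
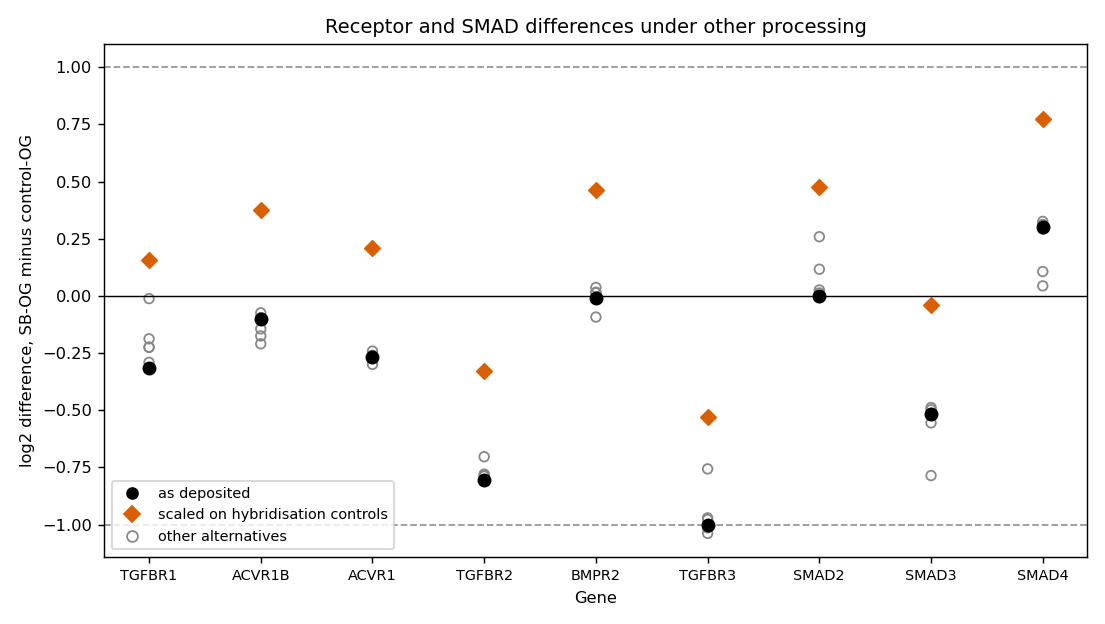
Log2 difference, SB-OG minus control-OG, of the 9 genes above background as deposited (black), with SB-OG scaled on the hybridisation controls (orange diamonds) and under the other alternatives (grey circles); dashed lines mark 2-fold. TGFBR2, TGFBR3 and SMAD3 stay below 0 and SMAD4 above it in every setting drawn, while TGFBR1, ACVR1B, ACVR1, BMPR2 and SMAD2 are found on both sides of 0.

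By their brightest probe sets, TGFBR2, TGFBR3 and SMAD3 were the 3 genes lower under every scaling. SMAD3 was at only -0.04 on the log2 scale with scaling on the hybridisation controls. Its probe set 205396_at was 1.60-fold higher as deposited and past 2-fold upward with that scaling. For these 3 genes the 250 bases before the most upstream start that RefSeq lists are shown, on assembly GRCh38.p14, 5′ to 3′ on the gene's strand. Capitals mark matches on either strand to GGGCGG (the GC box bound by SP1), CCAAT (the CCAAT box) and CAGAC (a core of the SMAD binding element). TGFBR2 is from chr3:30606106-30606355 on the plus strand, TGFBR3 from chr1:91886152-91886401 on the minus strand and SMAD3 from chr15:67065352-67065601 on the plus strand.
TGFBR2: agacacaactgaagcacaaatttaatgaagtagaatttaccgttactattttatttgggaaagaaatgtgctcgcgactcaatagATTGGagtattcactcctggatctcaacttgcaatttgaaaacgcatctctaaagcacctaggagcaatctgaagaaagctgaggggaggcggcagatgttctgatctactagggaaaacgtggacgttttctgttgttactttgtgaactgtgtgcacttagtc
TGFBR3: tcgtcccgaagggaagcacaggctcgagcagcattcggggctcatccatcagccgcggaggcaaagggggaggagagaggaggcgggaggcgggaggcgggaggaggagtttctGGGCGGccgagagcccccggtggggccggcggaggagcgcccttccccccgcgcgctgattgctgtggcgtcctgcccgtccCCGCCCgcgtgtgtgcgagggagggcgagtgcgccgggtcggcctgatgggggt
SMAD3: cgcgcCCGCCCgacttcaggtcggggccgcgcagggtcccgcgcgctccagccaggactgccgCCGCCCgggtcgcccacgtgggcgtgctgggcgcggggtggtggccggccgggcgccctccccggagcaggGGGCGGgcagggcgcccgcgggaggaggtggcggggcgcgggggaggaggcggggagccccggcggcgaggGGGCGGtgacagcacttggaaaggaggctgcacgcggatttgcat

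These 3 windows differ in composition. The bases G and C make up 40.8% of the TGFBR2 window, 73.6% of the TGFBR3 window and 80.8% of the SMAD3 window, beside a median of 57.6% over 27305 genes. The GC box occurs 4 times before SMAD3, 2 times before TGFBR3 and 0 times before TGFBR2, which has 1 CCAAT box. No CAGAC lies in the 3 windows. All 10 genes had an entry, and by the same choice of start 8 of their windows hold a GC box, 5 a CCAAT box and 2, those of ACVR1 and BMPR2, a CAGAC. Over all genes these motifs occur in 42.2%, 33.0% and 37.9% of windows. The table lists 5 starts for SMAD3 and 2 for TGFBR2, and which of them these cells use was not examined.

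Other receptors and co-receptors of the family spread further than the 10 genes by their brightest probe sets. Of 12 listed genes, 10 had a probe set of their own and 7 exceeded background. In SB-OG 5 were higher by 2-fold or more and none lower, beside 12.4% and 13.0% of all genes. Of these, HJV, RGMA and ACVRL1 exceeded background on SB-OG alone, so they could not have been counted as 2-fold lower. Among the genes above background on both arrays, only RGMB and ACVR2B were past 2-fold. The count of 5 became 4 with quantile normalization or with only the unmarked probe sets, and 3 with the mean of all probe sets. HJV, the co-receptor hemojuvelin, which binds BMPs and is expressed in skeletal muscle, went from 28.4 in control-OG to 1406 in SB-OG, a difference of at least 43.1-fold. Its relatives RGMB and RGMA, also BMP co-receptors, read 237 and 1604 (6.77-fold higher) and 2.11 and 211 (at least 6.48-fold higher). The activin type II receptor ACVR2B read 90.8 and 298, 3.29-fold higher, but its other probe sets were at -0.18 and 0.10 on the log2 scale. ACVRL1, named after its value was seen, was at least 2.04-fold higher, with another probe set at -0.16.

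The remaining 2 measured genes of that list were named after their values were seen. ACVR2A, the second activin type II receptor, read 950.5 on control-OG and 688 on SB-OG, 1.38-fold lower. ENG, a TGF-β co-receptor related to TGFBR3, read 128 and 132, with another probe set at -0.55. By the brightest probe sets, the gap between TGFBR3 and ENG was 1.06 on the log2 scale, or 2.08-fold. The other probe sets of TGFBR3 and ENG were close together, at -0.51 and -0.55, so this gap depends on the probe set. The gap between TGFBR3 and RGMB was 3.76, or 13.6-fold, by the brightest probe sets. BMPR1A and CRIPTO, which lack a probe set of their own, are not analysed here, and BMPR1B, AMHR2 and CFC1 were under background on both arrays.

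Of the 3 SMADs of the BMP branch, SMAD9 and SMAD1 were past 2-fold upward by their brightest probe sets, beside 12.4% of all genes. SMAD9 read 114 on control-OG and 451 on SB-OG, 3.95-fold higher, and SMAD1 read 415 and 844, 2.03-fold higher, while its other probe sets were at 0.04 and 1.24 on the log2 scale. SMAD5, named after its value was seen, read 545 and 843, 1.55-fold higher, and its remaining probe sets ranged from 0.05 to 0.71. So 2 of these 3 genes were past 2-fold as deposited, 1 with quantile normalization or a pseudocount, and none when all probe sets of each gene were averaged, those under background included. By the brightest probe sets the gap between SMAD3 and SMAD9 was 2.50 on the log2 scale, or 5.65-fold, and that between SMAD3 and SMAD1 was 2.90-fold.

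Proteins that act on the receptors and SMADs included the lowest differences of the pathway outside its target genes. Of 16 listed, 15 were measured, and SB-OG was lower by 2-fold or more for 5 and higher for 1, beside 13.0% and 12.4% of all genes. With only the probe sets whose names carry no mark, 3 were lower and 3 higher. BAMBI, a pseudoreceptor without a kinase that dampens signalling, read 3942 on control-OG and 246 on SB-OG, 16.1-fold lower. DAB2, an endocytic adaptor that links the receptors to the SMADs, read 3082 and 660.2, 4.67-fold lower, with its other 5 probe sets all negative, from -2.43 to -1.31. SMAD7, the inhibitory SMAD that is itself induced by TGF-β and is also in the list of target genes below, read 187 and 44.2, 4.24-fold lower. NEDD4L, a ubiquitin ligase for activated SMAD2 and SMAD3, went the other way, at 61.9 and 336, 5.43-fold higher, and its remaining probe sets gave 2.67 and 3.22.

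The other 2 genes past 2-fold in that list were named after their values were seen. ZFYVE9, also called SARA, which holds SMAD2 and SMAD3 at the receptor, read 230.4 on control-OG and 97.9 on SB-OG, 2.35-fold lower, with another probe set at -1.53. SMAD6, the inhibitory SMAD of the BMP branch, read 177 and 62.3, 2.84-fold lower. Members of the list within 1.5-fold included FKBP1A, which binds the resting type I receptor, at 2228 and 2309, and STRAP, a receptor-associated protein, at 4464 and 4278. PMEPA1, an inhibitor that sequesters SMAD2 and SMAD3, read 275 and 149, 1.84-fold lower.

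Of 10 listed nuclear partners of the SMADs, 9 were above background, of which 1, SKIL, was lower by 2-fold or more and none higher, shares close to or below the 13.0% and 12.4% of all genes. With scaling on the hybridisation controls 3 were 2-fold higher and none lower, and with the mean of all probe sets 1 was higher. SKIL, the corepressor SnoN, whose gene TGF-β induces, read 617 on control-OG and 260.2 on SB-OG, 2.37-fold lower, with another probe set at -3.05. FOXH1, the forkhead partner of SMAD2 in early embryos, was under background on both arrays at 5.86 and 23.8. The coactivator gene EP300 read 166 and 179. TGIF2, a corepressor, and SP1, a transcription factor that works with SMADs, were 1.96-fold higher and 1.20-fold lower by their brightest probe sets, but each had another probe set past 2-fold upward, at 1.07 and 1.16 on the log2 scale.

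Of 17 listed target genes of TGF-β and activin, 14 were above background, and 8 of them were lower by 2-fold or more in SB-OG and none higher, beside 13.0% and 12.4% of all genes. The median of the 14 was -1.34 on the log2 scale, beside -0.27 for the 9 receptor and SMAD genes. LTBP2, LMCD1, TGFBI and CDKN2B had the lowest values, 30.1-fold, 17.8-fold, 15.1-fold and 6.57-fold lower by their brightest probe sets. Another LTBP2 probe set was at -3.68 on the log2 scale, and those of LMCD1 ran from -5.08 to -1.05. Not every target was lower: CCN2, a matricellular growth factor, was 1.52-fold higher, THBS1, which encodes thrombospondin, was at 0.19 on the log2 scale and JUNB at -0.08, all named after their values were seen. This list overlaps with target genes already known to be low in these data, and its direction is therefore not independent evidence. It also shares SMAD7 and PMEPA1 with the list of receptor partners and negative regulators, and SKIL with the nuclear partners. Counting each gene once over the 5 lists, 45 of 55 genes were above background, with 8 at least 2-fold higher and 12 lower, or 14 and 9 with scaling on the hybridisation controls.

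**Figure D4:**
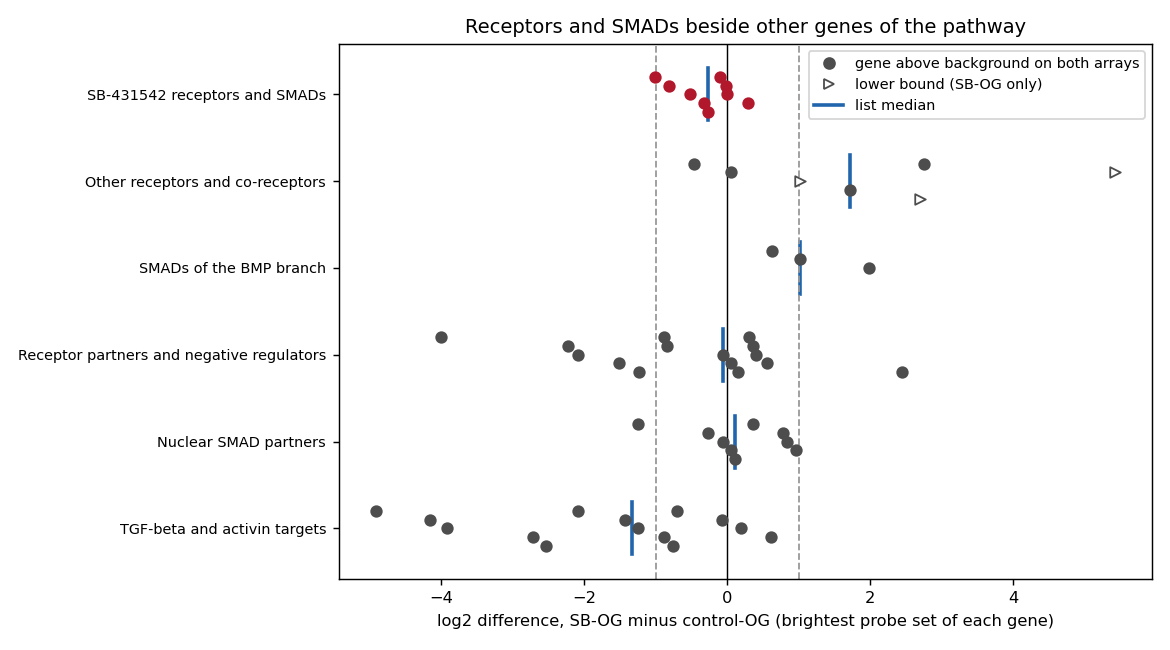
Log2 difference, SB-OG minus control-OG, of each gene above background by its brightest probe set, in rows by list, with blue bars for list medians, open triangles for lower bounds and dashed lines at 2-fold. The 9 receptors and SMADs (red) lie between -1.00 and 0.30, whereas other receptors reach 5.43 and target genes -4.91; scaling on the hybridisation controls moves the points up by 0.48 and turns the sign of small differences.

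Marker genes of several cell types differed between the cultures. All 7 skeletal muscle markers were higher in SB-OG by 2-fold or more, and their summed intensity went from 309.6 in control-OG to 39145 in SB-OG. Of 7 mesenchymal and fibroblast markers, 6 were at least 2-fold lower by their brightest probe sets and 1, PDGFRB, higher, with sums of 80029.9 and 31498. Another PDGFRA probe set was at only -0.08 on the log2 scale. Other probe sets of COL1A1, COL1A2 and DCN ran from -2.97 to -0.59, -2.26 to -0.96 and -2.14 to -0.74. Of 6 endothelial markers, 3 were lower, with sums of 2074 and 135, although another TEK probe set was at -0.61. CDH5 and TIE1 were under background on both arrays. Of 6 epithelial markers, 3 were lower and 1 higher, with sums of 16527 and 461, and EPCAM and CLDN4 were under background on both.

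Of 6 neural markers, 2 were higher and 1 lower, with sums of 6873 and 10598, and PAX6 and SOX1 were under background on both arrays by their brightest probe sets, while SOX1 had 1 other probe set above it, at 0.36 on the log2 scale. The pluripotency markers NANOG, LIN28A, DPPA4 and PRDM14 were likewise under background by their brightest probe sets, although DPPA4 had 1 other probe set above it, at 0.39, and SOX2 was above it on SB-OG only. Some markers moved far more than TGFBR2, TGFBR3 or SMAD3, and others, such as PDGFRB at 1.05, COL1A2 at -1.13 and PECAM1 at 0.22 or more, by about as much or less. The part of these cell types in the lower values of those genes, or in the higher values of HJV, RGMA, RGMB and SMAD9, was not tested.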

How the data were processed

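RNA of HUES9 outgrowths was read on 1 array per condition, grouped by the sample titles. The authors deposited a linear intensity for each of 54675 probe sets; the summarising software and its version were not given in the sources used here. Between the arrays the mean intensity agreed once the lowest and highest 2% were left out (150.02 each), so differences in total RNA cannot be seen. The number of arrays limits the precision.

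Names of probe sets come from the 2016 platform annotation, with symbols updated by gene ID, which matched 19734 of 19775 genes and all 10 members. Background rests on 213 probe sets for 172 genes of the olfactory and taste receptor, keratin-associated, beta defensin and late cornified envelope families. Intensities under it were raised to it before log2 differences were taken, so folds of genes measured on a single array are lower bounds ("at least"), and upward bounds start from the higher level. A gene above background on a single array could therefore be counted past 2-fold only toward that array, in every list. A gene took its probe set of highest mean log2 intensity.

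Members and lists were chosen with earlier results of these data known. Every probe set of the 10 genes is named, and up to 4 genes per list, picked by size of difference from 2-fold up; others were chosen after their values were seen. Genes of like pattern were not sought, since 2 arrays give none. The comparison was tested on simulated data. Alternatives were quantile, lowess (span 0.4), centred and hybridisation control scaling, averaging all probe sets, leaving out those with s, x or a in their name, no floor, a 99th percentile background, a pseudocount of 16 and a 3-fold threshold. Software was matplotlib 3.10.9, numpy 2.4.6, statsmodels 0.14.6, scipy 1.17.1 and pandas 2.3.3 under Python 3.11.15.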

Additional observations from a re-analysis of the deposited data

How the results depend on the processing

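With 1 array per condition no replicate can be left out, and no paired analysis was possible because each condition has a single array. No receptor or SMAD gene was 2-fold higher under any alternative run. The count of genes 2-fold lower, 1 as deposited, was 0 with centring, scaling on the hybridisation controls, the mean of all probe sets, the pseudocount and the 3-fold threshold. Scaling on the hybridisation controls turned the median difference to 0.21. Under it 1 of their probe sets above background on at least 1 array was 2-fold higher, 205396_at of SMAD3. Without a floor the count was also 1, but the probe set was 202526_at of SMAD4. Over the other pathway genes, the count 2-fold higher was 14 with scaling on the hybridisation controls and 5 with the mean of all probe sets, against 8. Each of the 9 measured genes stayed within the technical spread of 0.46 of its deposited value in 8 of 9 alternatives. The exception, scaling on the hybridisation controls, adds 0.48 to each of them, which is past that spread by construction. Dropping the floor or raising the background percentile left all 9 values unchanged, and centring moved them by a common small amount. Only quantile, lowess, the pseudocount and the choice of probe sets could move genes by different amounts. The count of 8 therefore does not show that a single gene is robust. Low intensity limits ACVR1C and the 9 probe sets under background on both arrays.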
